A study of Mus musculus with 6 samples.

Results

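Chemokines and their receptors were described in healing mouse bone of 2 genotypes, as 51 genes read by 83 probe sets among the 18193 genes and 45037 probe sets measured. A gene was a member if the platform annotation gave a probe set the single symbol Ccl, Cxcl, Ccr or Cxcr with a number, or named Cx3cl1, Cx3cr1, Xcl1 or one of Ackr1 to Ackr4. The members comprised 18 CC ligands, 15 CXC and other ligands, 9 CC receptors, 5 CXC or CX3C receptors and 4 atypical receptors. Where a gene has several probe sets, the one with the highest mean of all 6 values stands for it, and Cxcl1 is also given by all 3 of its probe sets. All values are log2 values per probe set, so a difference of 1 is a doubling, and values of different probe sets are not compared as levels.

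The tissue was callus, the repair tissue that bridges a fracture, from mice of a C57BL6J x 129SV mixed background aged 12 weeks. The tibia was cut and splinted by an intramedullary rod, and the tissue was taken at day 14. The 3 null samples were Cyp24a1 (-/-), and so lacked the enzyme that inactivates the vitamin D hormone, and the 3 control samples were heterozygous littermates, Cyp24a1 (+/-), which also carry 1 disrupted allele. All 6 samples shared the operation, the rod and the time point, and no wild-type or unoperated tissue entered the comparison. Whether each sample is a separate animal is left unsaid in the labels, so every p-value measures the spread between these samples, which may be technical.

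Chemokines are small secreted proteins that guide leukocytes along gradients. They are named by the spacing of their first cysteines (CC, CXC, CX3C or XC) and act through receptors coupled to G proteins, while atypical receptors bind and remove chemokine without that signal. In bone repair they are known for drawing neutrophils and monocytes to the injury, for calling osteoclast precursors and for holding blood-forming cells in the marrow.

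Of the bone genes, the collagen gene Col1a1 lay between 13.57 and 14.28 and the osteoclast protease gene Ctsk between 9.77 and 10.79. Not all stood so high, and Calcr, another osteoclast marker, lay between 2.73 and 3.24. The osteoblast markers were lower in null callus for 4 of 5, with a median of -0.32. Skeletal muscle was present as well, with Acta1 between 14.40 and 14.49. On null replicate 1 and heterozygous replicate 3 marrow transcripts were low, and there the mean of 9 neutrophil genes lay at -3.01 and -3.66, counted from the average of each gene, against 1.504 to 1.97 elsewhere. Erythroid genes stood at -3.32 and -2.81 on those arrays and at 0.97 to 1.91 elsewhere. As a guide to values that are not above background, Xist on arrays without it and Y-linked transcripts on arrays without them lay between 1.77 and 3.52. Each genotype held 1 array with high Xist. The targeted gene Cyp24a1 read 3.65, 3.20 and 3.23 in null and 2.71, 2.89 and 3.10 in heterozygous samples on 1418866_at, and 3.23, 3.46 and 3.12 against 3.17, 3.69 and 3.17 on 1418867_at. With 10 of these 12 values under the guide, it gives no check of the labels. Of the members, 40 had a mean above 3.52 and 11 did not (Ccl1, Cxcl3, Cxcl11, Cxcl15, Cxcl17, Xcl1, Ccr3, Ccr4, Ccr8, Ccr9 and Cxcr5).

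Among the members with the largest differences, which were all higher in null callus, were ligands that call monocytes and neutrophils. No member was lower there by 1.5-fold. Of the 51 members, 11 were at least 1.5-fold higher in null callus, or 21.6%, against 1.47% of all genes. These were Ccl2, Ccl3, Ccl6, Ccl7, Ccl8, Ccl9, Cxcl2, Cxcl3, Cxcl5, Cxcl13 and Ccr1, with Ccl9 at the threshold itself. Cxcl2 and Cxcl3 were counted by their fitted differences. All heterozygous values of Cxcl2 and both group means of Cxcl3 lie under the guide. Of the 11, only Ccl6 and Cxcl13 had groups that did not overlap on the probe set used. Ccl2, Ccl3, Ccl7, Ccl8, Cxcl2, Cxcl3, Cxcl5 and Cxcl13 were highest on null replicate 1. Members lower in null callus by at least 1.5-fold numbered 0, against 1.01% of all genes, though 3 were so without heterozygous replicate 2. In all, 28 members were higher and 23 lower, a share of 54.9% higher against 49.7% of all genes, with a median difference of 0.07 against -0.0017 over all genes. The median was 0.20 over the 44 members that kept a difference in the same direction when a group wholly under the guide was set to the guide.

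The 3 null values lay above all 3 heterozygous values for 7 members, or 13.7%, against 4.14% of all genes. These were Cxcl1, Cxcl12, Cxcl13, Ccl6, Ccl24, Cxcr4 and Ccr3, the last with every value under the guide of 3.52. The reverse held for 0 members, against 5.99% of all genes. No member passed limma's test at 0.05 after Benjamini-Hochberg adjustment across the 45037 probe sets (lowest adjusted p = 0.999 over the 51), and 0% of all probe sets passed, with 3.69% at an unadjusted p under 0.05. At an unadjusted limma p under 0.05 stood 8 members, all higher (Cxcl1, Cxcl3, Cxcl12, Cxcl13, Ccl6, Ccl9, Ccl24 and Ccr1), which is 15.7% against 2.06% of all genes in that direction, and 0 were lower, against 2.43%. Of either direction there were 3 when null replicate 3 was left out, 4 when heterozygous replicate 3 was and 5 when null replicate 1 was, against 2.81%, 7.77% and 6.28% of all genes. The 4 are 7.84% of the members, near the share of all genes. The members were chosen with such differences known, so these counts are a description. In whole tissue, a higher value from more cells of a type and one from more RNA per cell cannot be told apart.

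**Figure D1:**
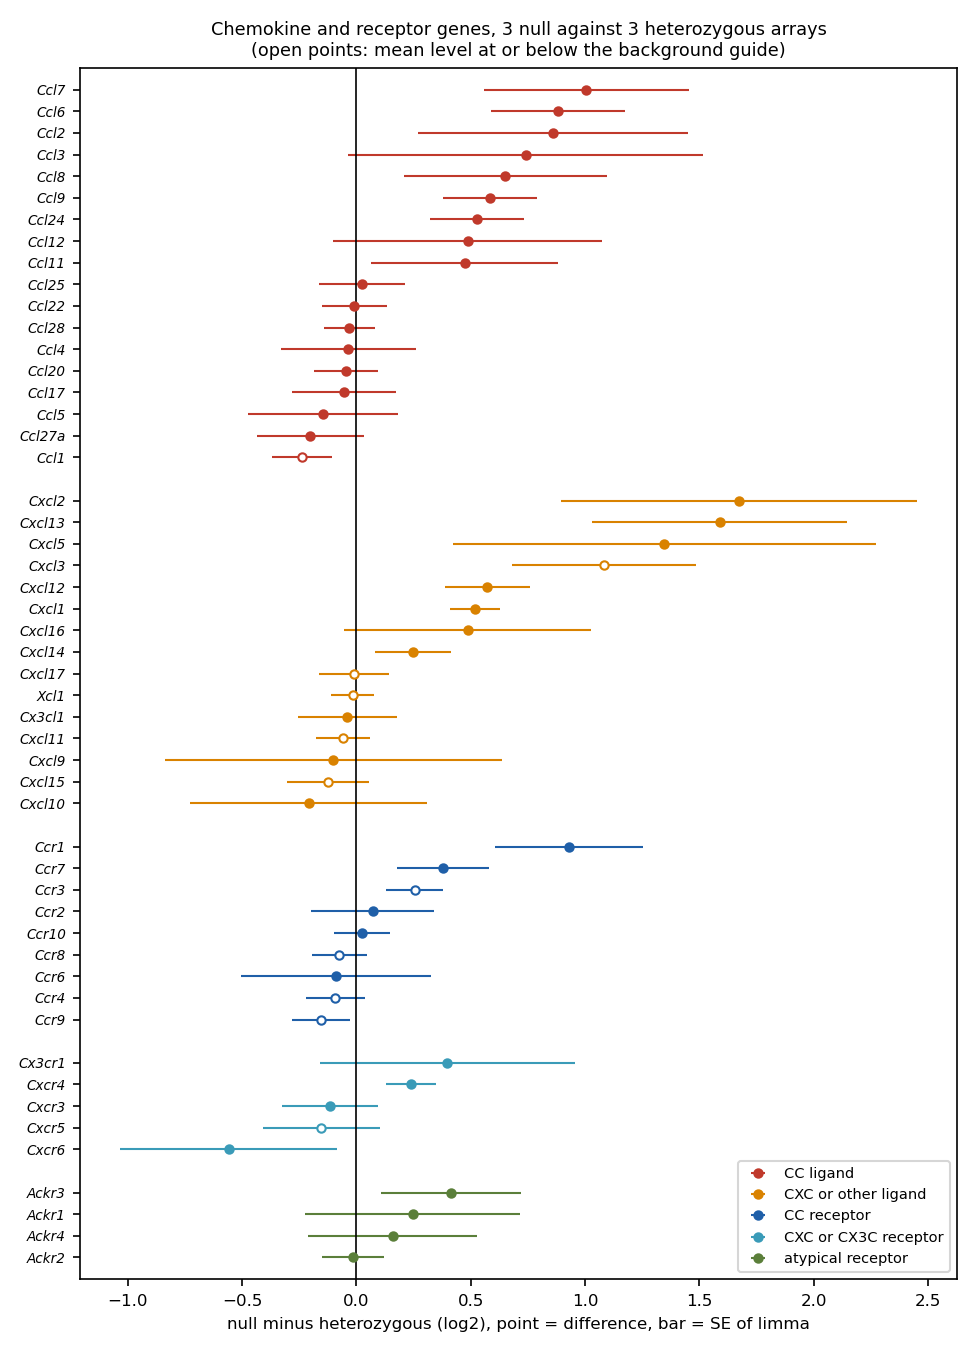
Difference between null and heterozygous callus (x axis, log2, null minus heterozygous) for the 51 member genes by role (y axis, coloured by role). Points are differences of means of 3 arrays, bars the standard error of limma, and open points mark genes with a mean at or below the background guide of 3.52; differences of 1.5-fold or more occur only to the right of 0.

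The CXC ligands with the residues glutamate, leucine and arginine ahead of the cysteine pair, known as ELR chemokines, draw neutrophils. Among the members these were Cxcl1, Cxcl2, Cxcl3, Cxcl5 and Cxcl15, whose genes lie in 1 cluster on chromosome 5 by the RefSeq gene order. CXC ligands under other symbols, such as Ppbp, are not members and were not counted with them. The stretches upstream of the start are shown for Cxcl1, Cxcl2 and Cxcl3. These neighbours were picked for a higher mean in null callus and for a short motif that the stretches share. For Cxcl3 both group means lay under the background guide, so that its difference gives no fold. Whether the motif has a part in any of these differences was not tested. The stretches are 250 bases each, 5′ to 3′ on the plus strand, from RefSeq on GRCm38.p6. They lie at chr5:90890995-90891244 for Cxcl1, chr5:90903649-90903898 for Cxcl2 and chr5:90785851-90786100 for Cxcl3. Capitals mark matches on either strand to GGG and TTTCC with any 2 bases between them, a spelling of the site that the inflammatory factor NF-kB is known to bind.
Cxcl1: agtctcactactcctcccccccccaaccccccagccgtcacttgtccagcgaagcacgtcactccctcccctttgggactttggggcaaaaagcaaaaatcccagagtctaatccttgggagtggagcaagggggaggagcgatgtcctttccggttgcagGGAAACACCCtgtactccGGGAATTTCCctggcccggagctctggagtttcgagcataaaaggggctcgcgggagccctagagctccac
Cxcl2: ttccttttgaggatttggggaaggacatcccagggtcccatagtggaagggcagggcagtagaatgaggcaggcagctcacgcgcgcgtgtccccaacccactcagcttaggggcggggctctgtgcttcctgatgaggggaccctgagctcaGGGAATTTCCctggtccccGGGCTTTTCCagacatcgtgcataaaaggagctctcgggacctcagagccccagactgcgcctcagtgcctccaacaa
Cxcl3: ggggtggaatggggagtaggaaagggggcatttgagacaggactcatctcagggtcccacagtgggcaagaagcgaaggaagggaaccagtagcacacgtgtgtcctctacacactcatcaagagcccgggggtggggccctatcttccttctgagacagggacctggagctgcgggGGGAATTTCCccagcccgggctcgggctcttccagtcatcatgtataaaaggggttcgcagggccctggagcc

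Each stretch holds the run GGGAATTTCCC, which starts 71 bases before the start in Cxcl1, 97 in Cxcl2 and 73 in Cxcl3. Cxcl1 and Cxcl2 share a longer run, GGGAATTTCCCTGG, of 14 bases, and each has another match (GGAAACACCC in Cxcl1, which matches on the minus strand, and GGGCTTTTCC in Cxcl2). Among 32851 upstream windows of this length in the table, 464 or 1.41% hold the motif. Of 42 windows of the 38 members with an entry, 6 hold it, those of Cxcl1, Cxcl2, Cxcl3, Ccl9, Ccl20 and Ccr3. Direct repeats with any 3 bases between the copies were also sought, of the half-site GGTCA, of GTTCA, or of the second ahead of the first. These are spellings of the element that the vitamin D receptor is known to bind. They occur in 0 of the 42 windows on either strand, against 0.067%, 0.13% and 0.027% of all windows. With shares so low, a count of 0 in 42 windows says nothing about the element, and bases further upstream were not searched. Of the 6 members with the first motif, Ccl9 differed by 0.59 and Ccl20 by -0.045 in log2 value, and Ccr3 stood under the guide on all arrays. Among the 13 members not analysed here for the motif were Cxcl5, Ccl2 and Ccl7.

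Cxcl1, the neutrophil chemoattractant first known as KC, was higher in null callus on each of its 3 probe sets, but by different amounts. Probe set 1419209_at read 5.76, 5.76 and 5.49 in the null samples and 4.61, 4.11 and 4.17 in the heterozygous samples. Probe set 1457644_s_at read 6.12, 6.35 and 6.21 against 5.63, 5.77 and 5.72. Probe set 1441855_x_at read 5.98, 5.99 and 5.96 against 5.83, 5.83 and 5.54. On none of the 3 did the genotypes overlap, and the null samples lay close together on each.

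The difference in Cxcl1 was 1.37 (SE 0.17), or 2.59-fold, on 1419209_at, 0.52 (SE 0.11), or 1.43-fold, on 1457644_s_at, and 0.25 (SE 0.12), or 1.19-fold, on 1441855_x_at. In the array's naming, _s_at and _x_at mark probe sets that can also match other transcripts. Limma's adjusted p was 0.775 for 1419209_at and 0.999 for the other two. A two-sided exact permutation test gave p = 0.1 on all 3, the smallest that 3 against 3 arrays allow. Without any 1 array the first difference stayed between 1.28 and 1.53 and the second between 0.46 and 0.57. The third lay between 0.15 and 0.30, lowest without heterozygous replicate 3 (SE 0.11). Cxcl1 did not have its lowest null value on replicate 2 on any of its probe sets.

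In contrast to Cxcl1, Cxcl2, Cxcl3 and Cxcl5 shared 1 order of the null samples, with replicate 1 highest, replicate 3 next and replicate 2 lowest. Cxcl2 read 6.21, 2.83 and 4.43 in the null and 3.08, 2.55 and 2.82 in the heterozygous samples. All 3 heterozygous values and null replicate 2 were under the guide of 3.52, so no fold is given (means 4.49 ± 1.69 and 2.82 ± 0.27, SD, n = 3). The null mean lay 1.96-fold above the guide, or 1.08-fold without null replicate 1 and 3.47-fold without null replicate 2. Null replicate 2 lay under heterozygous replicate 1, so the genotypes overlapped (two-sided exact permutation p = 0.2). Cxcl3 read 4.24, 2.57 and 3.54 against 2.62, 2.22 and 2.27, also with every heterozygous value under the guide, and its null mean of 3.45 leaves no fold. Only null replicates 1 and 3 stood above the guide for either gene.

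Cxcl5 read 7.36, 4.25 and 5.95 in null callus, against 6.02, 3.77 and 3.73 in heterozygous callus. The genotypes overlapped, because heterozygous replicate 1 lay above null replicates 2 and 3, and the difference was 1.35 (SE 0.93; limma adjusted p = 0.999). Leaving out null replicate 1 gave 0.59, null replicate 2 gave 2.15 and heterozygous replicate 1 gave 2.10. Without both arrays low in marrow transcripts it was 0.21, and with array weights 0.42. Cxcl15, the last of the ELR members, had values from 2.79 to 3.40 on all arrays, all under the guide.

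**Figure D2:**
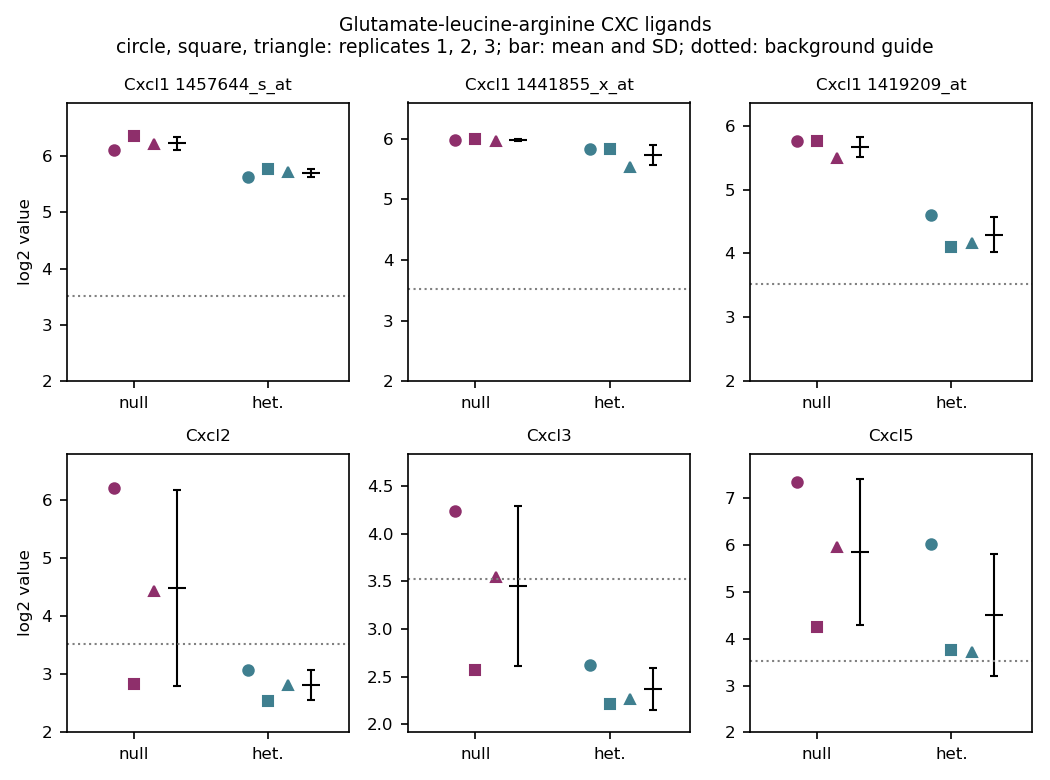
Log2 values (y axis) of the 3 probe sets of Cxcl1 and of Cxcl2, Cxcl3 and Cxcl5 in null and heterozygous callus (x axis). Circles, squares and triangles are replicates 1, 2 and 3, black bars the mean and SD of 3 samples and the dotted line the background guide of 3.52; Cxcl1 has no overlap on any probe set, while Cxcl2, Cxcl3 and Cxcl5 spread widely in null callus with replicate 1 highest.

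Among the other CXC ligands, Cxcl12 and Cxcl13 were higher in every null sample than in any heterozygous sample on their main probe sets. Cxcl12, made by stromal cells and known for holding blood stem cells in the marrow, read 11.11, 10.74 and 10.86 in the null and 10.47, 9.98 and 10.54 in the heterozygous samples. The groups did not overlap on this probe set (1448823_at), and the difference was 0.57 (SE 0.19), or 1.49-fold, with 0.38 (SE 0.39) on 1417574_at and -0.13 (SE 0.16) on 1439084_at. Markers of fibroblasts (Pdgfra, Dcn, Lum and Postn) were higher in null callus for 4 of 4, with list means of 0.32, -0.17 and 0.47 in null and -0.28, -0.62 and 0.27 in heterozygous samples and none at the guide. Their part in the difference was not tested.

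Cxcr4, the signalling receptor of Cxcl12, read 7.43, 7.61 and 7.68 in null callus, against 7.35, 7.27 and 7.39 in heterozygous callus. All null values lay above the heterozygous ones, narrowly at the closest, and the difference was 0.24 (SE 0.11), or 1.18-fold. Ackr3, the atypical receptor that takes up Cxcl12, read 7.21, 7.83 and 8.46 against 7.32, 7.61 and 7.33. Its highest value came from null replicate 3 and its lowest from null replicate 1, so the groups overlapped, and the difference of 0.41 (SE 0.30) was 0.10 without null replicate 3. The limma adjusted p was 0.999 for all 3 genes of this axis, with a two-sided exact permutation p of 0.1 for Cxcl12 and Cxcr4 and 0.4 for Ackr3.

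Cxcl13, the ligand that draws B cells into follicles, read 7.04, 6.75 and 6.42 in the null and 5.97, 5.67 and 3.80 in the heterozygous samples. The groups did not overlap, and heterozygous replicate 3 lay far under the others. The difference was 1.59 (SE 0.56), or 3.01-fold, on this probe set (1417851_at) and 0.51 (SE 0.21) with overlapping groups on 1448859_at (limma adjusted p = 0.999 for both). Without heterozygous replicate 3 the first was 0.92, and without both arrays low in marrow transcripts 0.76. Its receptor Cxcr5 had values from 3.04 to 3.97 with overlapping groups (-0.15, SE 0.25). The B cell markers had list means of -0.54, 0.71 and 0.04 in the null group and 0.17, 0.19 and -0.58 in heterozygous samples, of which 3 genes of 5 were higher in the null group and 2 lay at or under the guide on all arrays, and their part was not tested.

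Cxcl14, a constitutive ligand of skin and stroma, read 9.77, 10.09 and 9.96 in null callus, against 9.39, 9.91 and 9.77 in heterozygous callus, a difference of 0.25 (SE 0.17) with overlapping groups, and 0.30 (SE 0.16) without overlap on its other probe set. Without heterozygous replicate 1 the first was 0.098. The 4 keratinocyte markers were all higher in null callus, by a median of 1.55, with none at the guide and list means of 1.64, 0.94 and -0.04 in null and -2.13, 0.41 and -0.83 in heterozygous samples, and their part in any difference was not tested. Cxcl16, the membrane-bound ligand of Cxcr6, read 8.87, 6.93 and 7.37 against 7.18, 6.67 and 7.86. Null replicate 1 and heterozygous replicate 3 were its highest arrays, and its difference of 0.49 (SE 0.54) was -0.08 without null replicate 1. Cxcr6 itself was above 4 on heterozygous replicate 1 only (4.99, against 3.00 to 3.73 on the other arrays).

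The ligands of Cxcr3, which T cells and natural killer cells carry, had group means close together, with a direction that turned on heterozygous replicate 3. Cxcl9 read 5.85, 5.30 and 5.66 in the null and 5.93, 4.02 and 7.17 in the heterozygous samples, a difference of -0.10 (SE 0.74), and the heterozygous samples alone covered the whole range. Cxcl10 read 5.78, 4.41 and 4.87 against 5.37, 4.28 and 6.04, a difference of -0.21 (SE 0.52). Cxcr3 read 5.54, 5.53 and 5.68 against 5.63, 5.33 and 6.14 (-0.12, SE 0.21). For all 3 genes heterozygous replicate 3 was highest and heterozygous replicate 2 lowest, although Cxcl10's null replicate 2 came close to the lowest value. Without heterozygous replicate 3 the differences were 0.63 for Cxcl9, 0.19 for Cxcl10 and 0.10 for Cxcr3. The neighbouring chromosome 5 genes Cxcl9 and Cxcl10 had a median of -0.16, or 0.41 without that array. The ELR members on the same chromosome were higher for 4 of 5. Their median of 1.08 is the value of Cxcl3, whose group means both lay under the guide. Over the 3 others with a mean above the guide (Cxcl1, Cxcl2 and Cxcl5) it was 0.97, with Cxcl2 counted as its null mean minus the guide.

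Of the CC ligands, those that act on Ccr1 and Ccr2 were mostly higher in null callus. Ccl6, a ligand of Ccr1 found in rodents, read 10.25, 9.66 and 10.60 in null callus, against 9.65, 9.36 and 8.87 in heterozygous callus. The groups did not overlap, though null replicate 2 and heterozygous replicate 1 nearly met, and the difference was 0.88 (SE 0.29), or 1.84-fold, with 0.98 (SE 0.34) on its other probe set. Ccl9, also a rodent ligand of Ccr1 and known from osteoclasts, read 9.06, 8.54 and 9.17 against 8.60, 8.26 and 8.16. Only null replicate 2 fell within the heterozygous range, and the difference was 0.59 (SE 0.20), with 0.60 (SE 0.26) and no overlap on its other probe set. Ccr1 itself, carried by monocytes, neutrophils and osteoclast precursors, read 6.96, 7.27 and 7.27 against 6.98, 6.00 and 5.73, a difference of 0.93 (SE 0.32), or 1.90-fold. Its null samples were close together, and heterozygous replicate 1 reached their lower edge.

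Ccl3, a ligand of Ccr1 that activated macrophages release, read 6.09, 3.66 and 5.18 in the null and 3.95, 3.22 and 5.53 in the heterozygous samples. Its highest arrays were null replicate 1 and heterozygous replicate 3, the groups overlapped, and the difference of 0.74 (SE 0.78) was 0.18 without null replicate 1. Ccl5, which also binds Ccr1, differed by -0.15 (SE 0.33), or 0.19 without heterozygous replicate 3. For these 5 genes limma gave an adjusted p of 0.999, with a two-sided exact permutation p of 0.1 for Ccl6 and 0.2 for Ccl9 and Ccr1.

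The ligands of Ccr2, the receptor that brings monocytes out of the marrow, were highest on null replicate 1 for 3 of 3. Ccl2 read 8.11, 6.09 and 6.69 in null callus, against 5.98, 5.41 and 6.92 in heterozygous callus, a difference of 0.86 (SE 0.59). Ccl7 read 6.65, 5.08 and 5.81 against 4.88, 4.25 and 5.39, a difference of 1.01 (SE 0.45). Ccl12 read 8.47, 6.15 and 7.37 against 7.12, 6.20 and 7.22, a difference of 0.49 (SE 0.59). In each the groups overlapped, with heterozygous replicate 3 above null replicate 2. Without null replicate 1 the differences were 0.29, 0.61 and -0.08.

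Ccr2 showed another pattern, at 7.25, 7.82 and 7.92 in the null and 7.87, 7.80 and 7.10 in the heterozygous samples (difference 0.07, SE 0.27). Its lowest arrays were null replicate 1 and heterozygous replicate 3, the 2 low in marrow transcripts. On these arrays its ligand Ccl2 was highest and second highest, and no relation between the 2 genes was tested. The genes of Ccl2, Ccl7, Ccl11, Ccl12, Ccl8 and Ccl1 are neighbours on chromosome 11, and 5 of these 6 were higher in null callus, with a median of 0.57. Ccl1, the exception, had 2 of 6 values above the guide.

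Ccl8, a ligand of Ccr8 in mice, read 10.69, 9.14 and 10.43 in null callus, against 9.34, 9.004 and 9.95 in heterozygous callus. The groups overlapped, and the difference of 0.65 (SE 0.44), or 1.57-fold, was 0.35 without null replicate 1. Ccr8 stood under the guide on all 6 arrays. Ccl24, an eosinophil-drawing ligand of Ccr3 made by alternatively activated macrophages, read 5.202, 5.23 and 5.64 against 4.74, 5.19 and 4.55. The groups did not overlap, though null replicate 1 and heterozygous replicate 2 nearly met, and the difference was 0.53 (SE 0.21), or 1.44-fold. Ccl11, also a ligand of Ccr3, read 6.33, 6.74 and 7.71 against 6.67, 6.84 and 5.86 (0.47, SE 0.41), and 0.08 without null replicate 3 or 0.17 without heterozygous replicate 3.

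The 8 measured genes of monocytes and macrophages were all higher in null callus by 0.42 to 1.19, with a median of 0.50 and none at the guide. Their list means per array were 1.01, -0.42 and 0.33 in null and -0.33, -0.77 and 0.18 in heterozygous samples, and their mean log2 value ran from 8.98 to 10.42 in null and from 8.64 to 9.58 in heterozygous samples. Null replicate 1 was highest and heterozygous replicate 2 lowest, as for Ccl2, Ccl7, Ccl8 and Cxcl16. The part of these cells in the differences of the ligands was not tested. The neutrophil markers were higher in null callus for 8 of 9, at -3.01, 1.97 and 1.504 in the null group and 1.61, 1.58 and -3.66 in heterozygous samples. Null replicate 1, which had the highest Cxcl2, Cxcl3 and Cxcl5, was thus 1 of the 2 arrays with the lowest neutrophil transcripts.

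**Figure D3:**
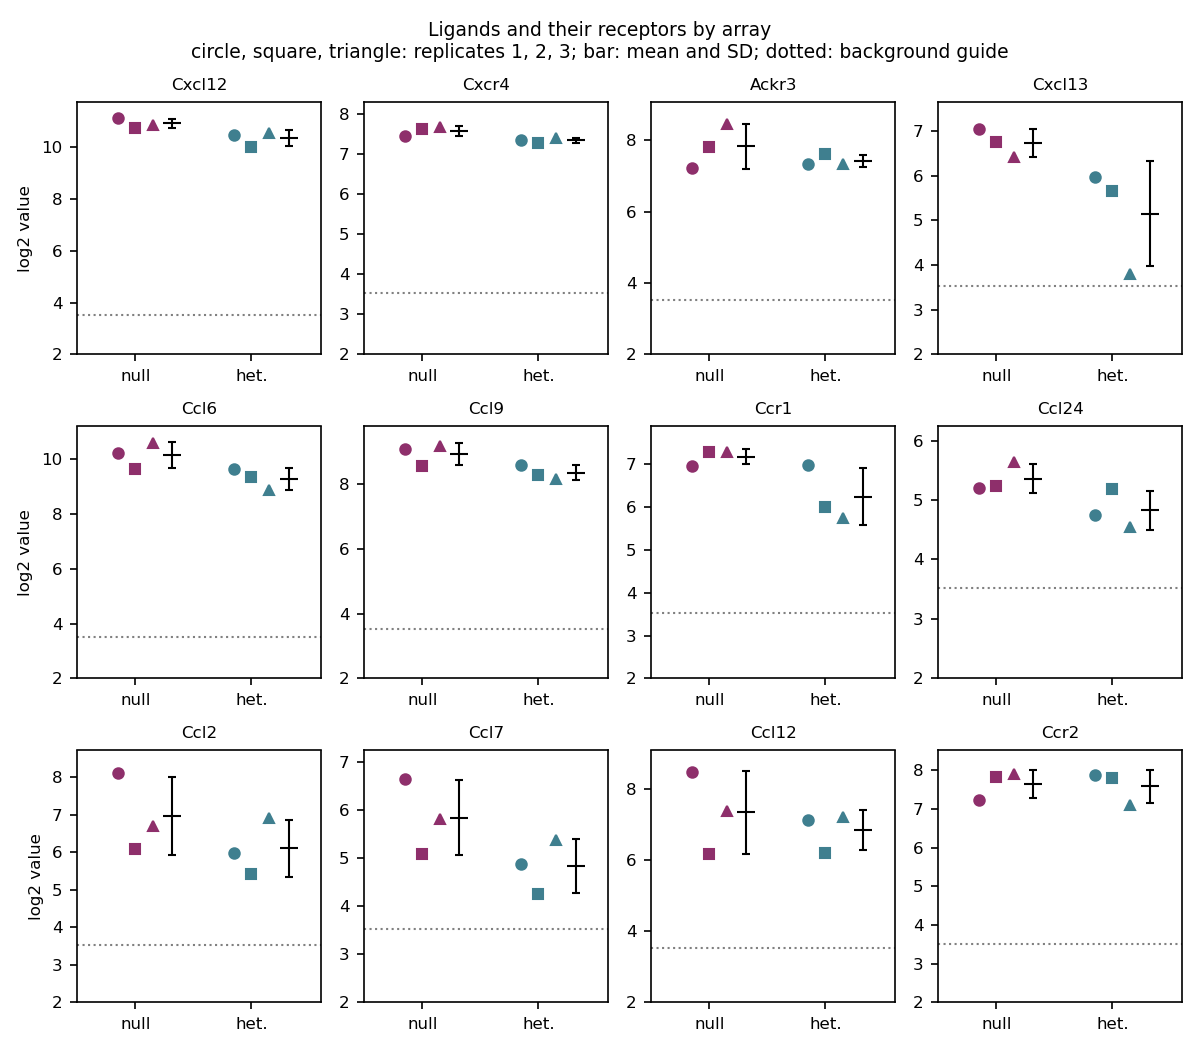
Log2 values (y axis) of ligands and of receptors they are known to bind in null and heterozygous callus (x axis), with Cxcl12, Cxcr4, Ackr3 and Cxcl13 above, Ccl6, Ccl9, Ccr1 and Ccl24 in the middle and Ccl2, Ccl7, Ccl12 and Ccr2 below. Circles, squares and triangles are replicates 1, 2 and 3, black bars the mean and SD of 3 samples and the dotted line the background guide of 3.52; Cxcl12, Cxcr4, Cxcl13, Ccl6 and Ccl24 have no overlap of genotypes.

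Among the receptors not yet described, the genotypes overlapped for Cx3cr1, Ccr6, Ccr7, Ackr1, Ackr2 and Ackr4. Cx3cr1, the fractalkine receptor of patrolling monocytes and tissue macrophages, read 7.40, 5.92 and 6.10 in the null and 6.05, 5.19 and 6.99 in the heterozygous samples. Its 2 highest arrays were again null replicate 1 and heterozygous replicate 3, and the difference of 0.40 (SE 0.56) was -0.07 without null replicate 1. Its ligand Cx3cl1 differed by -0.04 (SE 0.22). Ccr6, carried by B cells and some T cells, read 3.79, 4.96 and 4.20 against 5.18, 3.99 and 4.05 (-0.09, SE 0.42), and its ligand Ccl20 stayed between 3.58 and 3.93. Ccr7, which guides dendritic and T cells to lymph nodes, differed by 0.38 (SE 0.20), or 0.21 without null replicate 2.

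Of the atypical receptors, Ackr1, which binds inflammatory chemokines on small veins and red cells, read 6.36, 7.24 and 6.99 in null callus, against 7.21, 7.07 and 5.56 in heterozygous callus. Its lowest arrays were the 2 low in erythroid transcripts, and the difference of 0.25 (SE 0.47) was -0.28 without heterozygous replicate 3. Ackr4, which removes the ligands of Ccr7 and Ccr9, read 5.70, 5.36 and 5.68 against 5.46, 6.17 and 4.64 (0.16, SE 0.37). Ackr2, a scavenger of inflammatory CC ligands, differed by -0.015 (SE 0.14).

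Single arrays held many of the extreme values. Of the 25 members above the guide that spanned at least 1 log2 unit over the 6 arrays, 12 were highest on null replicate 1 and 12 lowest on heterozygous replicate 2. A further 9 were lowest on heterozygous replicate 3, among them Cxcl13, Ccr1, Ccl6, Ccl9 and Ackr1. Both arrays low in marrow transcripts lay above the other 4 arrays for 5 members (Ccl2, Ccl3, Cxcl10, Cxcl16 and Cx3cr1) and below them for 6 (Ccl11, Ccl17, Cxcl17, Ccr2, Ccr9 and Ackr1). That is 9.80% and 11.8% of members, against 16.4% and 16.5% of all genes. Averaged over the 51 members, null samples stood at 0.30, -0.06 and 0.18 and heterozygous samples at 0.0092, -0.31 and -0.12 around the average of each gene, so the genotypes overlapped.

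**Figure D4:**
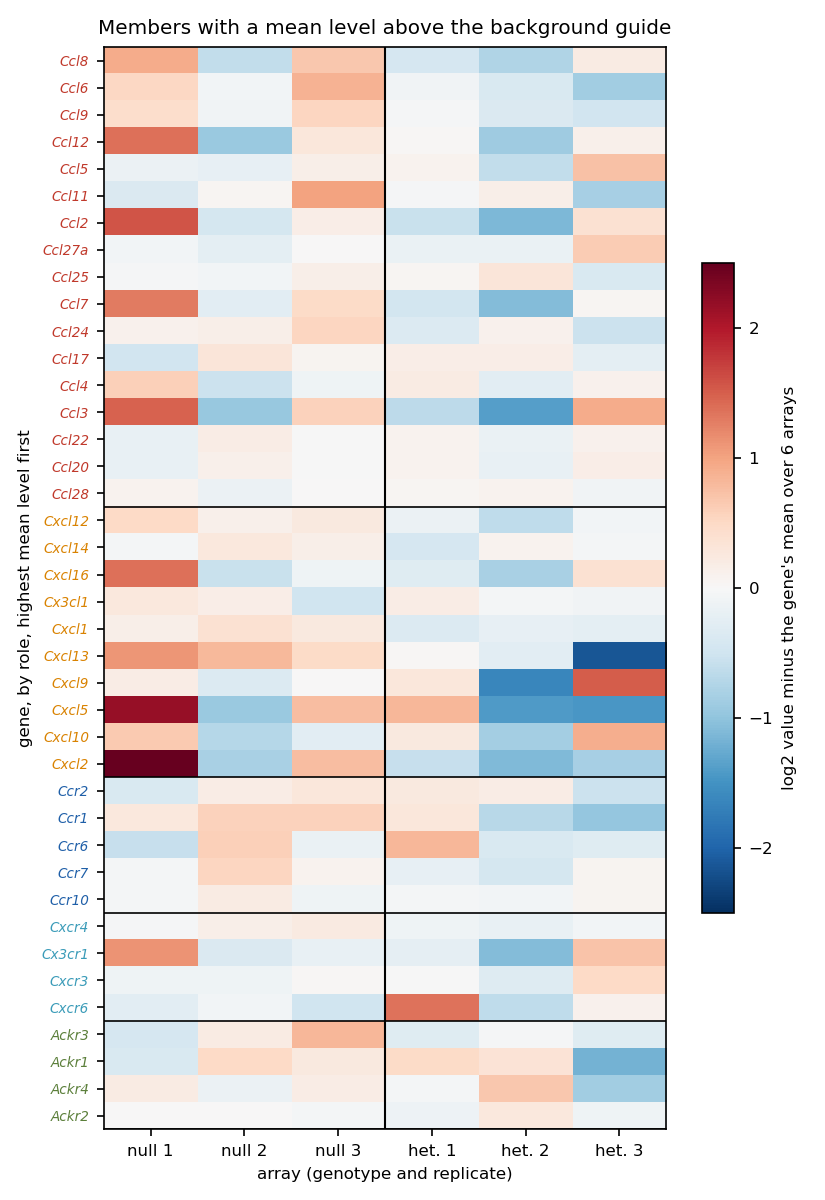
Log2 value minus the gene's mean over the 6 arrays (colour) for the 40 members with a mean above the guide (rows, label coloured and grouped by role) on each array (columns, null then heterozygous). Null replicate 1 holds the highest values of Cxcl2, Cxcl5, Ccl2, Ccl3, Ccl7 and Ccl12, and heterozygous replicate 2 the lowest of Ccl2, Ccl3, Ccl7 and Cxcl9.

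By the textbook split, inducible ligands had the larger share higher, and constitutive ones the larger share without overlap. Ligands in neither class, among them Cxcl3, Ccl6, Ccl9 and Ccl24, are not counted here. Of 16 inducible ligands 10 were higher in null callus, with a median of 0.49 and 6 at least 1.5-fold higher. Of 8 measured constitutive ligands 4 were higher, with a median of 0.0072 and 1, Cxcl13, at least 1.5-fold higher. The 1.5-fold shares were 37.5% and 12.5%, against 1.47% of all genes. Groups without overlap, higher in null callus, made up 6.25% of inducible and 25% of constitutive ligands, against 4.14% of all genes. Ligands higher at an unadjusted limma p under 0.05 were also 6.25% and 25%, against 2.06% of all genes. Ligands had 18 of 33 higher with a median of 0.25, and receptors 10 of 18 with a median of 0.05. The difference between these groups was not tested.

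Genes around the chemokines were counted from 3 lists. Of 41 measured genes of receptor signalling, 35 were higher in null callus with a median of 0.19, and 0 passed limma's adjusted test. The kinase gene Prkcd read 8.56, 8.52 and 8.68 in the null and 8.11, 7.81 and 7.86 in the heterozygous samples. Vav3, an exchange factor for Rac, read 5.89, 5.92 and 6.004 against 5.45, 5.49 and 5.505. The arrestin gene Arrb2, whose product stops signalling and internalises receptors, differed by 0.48 (SE 0.14). In these 3 the genotypes did not overlap, which held upward for 6 of the 41 (14.6%, against 4.14% of all genes) and downward for 1 (2.44%, against 5.99%).

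Of 29 genes that cleave, bind or present chemokines, 24 were higher, with a median of 0.26, and 0 passed. Pf4, the platelet CXC ligand also made by macrophages, read 11.60, 10.26 and 10.39 in null callus, against 9.91, 9.83 and 9.82 in heterozygous callus, a difference of 0.90 (SE 0.35) without overlap, or 0.47 without null replicate 1. Tnfaip6, whose product binds hyaluronan and chemokines, read 3.31, 3.79 and 3.81 against 3.07, 3.00 and 3.05, with all heterozygous values under the guide. Of 26 genes that induce chemokines or answer with them, 21 were higher, with a median of 0.14, and 0 passed. The lowest limma adjusted p there was 0.775, for the cytokine gene Il6, which read 3.77, 3.68 and 3.91 in null callus and stood under the guide in all 3 heterozygous samples. Il17ra, a receptor chain for interleukin 17, which is known to induce Cxcl1, read 7.66, 7.52 and 7.73 against 7.26, 7.19 and 6.94, a difference of 0.505 (SE 0.13). The 3 lists hold genes that macrophages also express, and the part of those cells was not tested. Over all genes the share higher was 49.7% and the median -0.0017.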

How the data were processed

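Callus RNA from 3 Cyp24a1-null and 3 heterozygous samples was labelled with biotin and measured on Affymetrix mouse expression arrays, per the labels' protocols. The authors' deposited table holds 1 value per probe set and array, taken to be log2 from its range; the software and normalisation behind it are not given in the sources used. Array medians lay between 4.55 and 4.59, so any shift of all genes together would be lost, and low values lie near a floor that compresses differences. The number of arrays limits the precision.

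Of 45101 probe sets, 64 controls were left out. The platform annotation gave 1 symbol for 34945, several for 932 and none for 9160, and genes were named only from single symbols. The test was lmFit and eBayes of limma 3.58.1 under R 4.3.3 (null minus heterozygous, two-sided, no covariate or filter), with Benjamini-Hochberg adjustment over 45037 probe sets, and checked on simulated data. The members, lists and alternatives were chosen with earlier results of these data known, and 1 receptor is not reported here. Every member could be named; values for all arrays were given to Cxcl1, to members without overlap above the median level, to the 3 with the highest mean in each role, to the 3 with the largest range and to partners of these. Of other lists, up to 4 genes with the lowest unadjusted p could be named. Cxcl3, Ccl11 and Ppbp were added after their values were seen. The ELR ligands are a textbook list, since no protein sequences were used here. Upstream sequences and gene order came from RefSeq (GRCm38.p6). Alternatives were quantile and cyclic loess normalisation, array weights, a prior with trend and robust fitting, leaving out probe sets under the median level, the mean of all probe sets of a gene, a threshold of 0.1, the mean of the neutrophil and erythroid markers as a covariate, and leaving out each array or both arrays low in marrow transcripts.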

Additional observations from a re-analysis of the deposited data

How the results depend on the processing

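No member passed limma's adjusted threshold of 0.05 under any alternative run, nor at 0.1 in the main setting. The count of members higher in null callus was 28 of 51, against 49.7% of all genes. It lay between 29 and 36 when 1 array was left out (46.4% to 51.4% of all genes) and at 34 without both arrays low in marrow transcripts (46.9%). Under the other alternatives it lay between 23 and 32 (48.1% to 53.5%), and the 23 was of the 31 members kept by a filter at the median level. The count of members whose groups did not overlap was 7, and between 7 and 15 when 1 array was left out, where fewer arrays also made separation more common (15.9% to 27.0% of all genes, against 10.1%). The share of members was smaller than that of all genes without null replicate 1, null replicate 3 or heterozygous replicate 3. It was larger without each of the other arrays. Without both arrays low in marrow transcripts the count was 16 of 51, a smaller share than the 43.2% of all genes. Members at least 1.5-fold higher numbered 9 to 16, against 1.08% to 3.80% of all genes, and lower 0 to 3, over the alternatives. The count without overlap is not defined with the marrow covariate. The sign of the difference changed for 27 of the 51 members (21 of the 40 above the guide) when some 1 array was left out. Among the members singled out by the naming rule, and Ccl12, these differences ranged from -0.28 to 0.54 for Ackr1, -0.23 to 0.53 for Ackr4, -0.18 to 0.28 for Ccr2, -0.41 to 0.30 for Ccr6, -0.067 to 0.86 for Cx3cr1, -0.084 to 0.88 for Cxcl16, -0.30 to 0.10 for Cxcr3 and -0.082 to 1.07 for Ccl12. They ranged from -0.95 to 0.63 for Cxcl9, -0.68 to 0.19 for Cxcl10 and -0.48 to 0.19 for Ccl5. Without both marrow-poor arrays the sign changed for 12 members (10 of the 40), among them Cxcl9 (0.51), Ccl5 (0.23), Ackr1 (-0.029), Ackr4 (-0.29) and Cxcr3 (0.13); the cause was not tested. No paired analysis was possible because the labels give no replicate numbers or litters. With 3 arrays a genotype, differences of the size of most members' standard errors cannot be told from 0.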
